A study of Mus musculus with 11 samples.

Results

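The kinase mTOR works in a pair of protein complexes, and the 10 genes described here encode their core subunits and the switch that turns the first complex on. They were taken as a fixed list of subunits and regulators: Rptor, Mtor, Mlst8, Akt1s1, Deptor, Rictor, Mapkap1, Tsc1, Tsc2 and Rheb. All 10 are among the 34728 gene symbols of the deposited table, and 9 of the 10 were among the 11251 genes tested. RNA was measured in β-cells collected by flow cytometry for GFP from dispersed islets of mice aged 8 weeks on a C57BL/6 x 129SV background. The 3 WT libraries came from mice that carried RIP-Cre and Rosa26GFP with intact Raptor alleles, so the controls share the Cre and the reporter with the mutants. The 4 diabetic βRapKOGFP libraries came from mice with floxed Raptor, RIP-Cre and Rosa26GFP that received no insulin. The 4 euglycemic βRapKOGFP libraries came from mutants of the same genotype that had received insulin for 4 weeks, which is the group the table's columns call KI. RIP-Cre is driven by the rat insulin promoter, so recombination is limited to cells that have used this promoter. The number of mice behind each library is not given in the sources used here, and p-values measure the spread between these libraries.

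As background, mTOR complex 1 holds mTOR, Raptor and mLST8, and Raptor is the scaffold that brings substrates such as S6 kinase and the 4E-binding proteins to the kinase. mTOR complex 2 holds mTOR, mLST8, Rictor and mSin1 and phosphorylates Akt, SGK and conventional protein kinase C. The GTPase Rheb activates complex 1 at the lysosome, and the TSC1-TSC2 complex keeps Rheb inactive when growth factors or energy are short. In β-cells the pathway is known for its control of cell size, insulin synthesis and the response to nutrients. Values are FPKM, that is fragments per kilobase of transcript scaled to the mapped fragments of the library, so levels of different genes can be set side by side per length. The Cre-mediated loss of Rptor exons was built into the mutants, so a lower Rptor value is a check of the labels, and FPKM over the whole gene also counts fragments from exons that remain.

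The start regions of 3 members are shown first because they span the range of levels: Rptor, the lowest in every group, Rictor, the complex 2 counterpart used below as its reference, and Rheb, the highest in every group. Each is 300 bases of GRCm38.p6 from RefSeq, 250 before and 50 after the annotated start, printed 5′ to 3′ on the gene's own strand at chr11:119602655-119602954 (+) for Rptor, chr15:6708131-6708430 (+) for Rictor and chr5:24842312-24842611 (−) for Rheb. Capitals mark short motifs found on either strand. They are the E-box with the letters CACGTG, the GC box with the letters GGGCGG, the CCAAT box, the core of the cAMP response element with the letters TGACG, and the core of the ETS site with the letters CCGGAA.
Rptor: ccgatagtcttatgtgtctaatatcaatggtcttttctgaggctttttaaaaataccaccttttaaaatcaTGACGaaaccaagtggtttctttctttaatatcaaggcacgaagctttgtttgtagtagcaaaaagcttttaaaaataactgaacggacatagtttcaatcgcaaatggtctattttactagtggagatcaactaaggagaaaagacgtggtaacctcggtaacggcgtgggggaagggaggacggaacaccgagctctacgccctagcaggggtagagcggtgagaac
Rictor: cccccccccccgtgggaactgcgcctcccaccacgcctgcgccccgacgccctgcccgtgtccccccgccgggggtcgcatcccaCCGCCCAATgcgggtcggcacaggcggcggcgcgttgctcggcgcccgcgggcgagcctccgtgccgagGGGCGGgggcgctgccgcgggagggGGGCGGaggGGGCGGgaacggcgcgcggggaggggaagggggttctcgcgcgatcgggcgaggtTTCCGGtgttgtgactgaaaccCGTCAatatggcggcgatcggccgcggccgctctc
Rheb: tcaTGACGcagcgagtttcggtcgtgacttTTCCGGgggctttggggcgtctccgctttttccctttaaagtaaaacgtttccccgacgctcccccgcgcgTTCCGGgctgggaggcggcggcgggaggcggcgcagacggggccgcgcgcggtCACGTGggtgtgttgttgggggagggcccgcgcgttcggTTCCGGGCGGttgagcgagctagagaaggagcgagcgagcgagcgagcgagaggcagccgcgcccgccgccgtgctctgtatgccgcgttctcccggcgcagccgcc

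The Rptor window is poor in G and C, at 41.7% with 13 CpG dinucleotides, against 78.3% and 47 in Rictor and 70.0% and 47 in Rheb. Among all 32851 promoters of the table the median was 52.7% G and C and 7 CpG. TGACG was found in each of these windows and in 20.8% of all promoters. CACGTG was found in Rheb and in no other member window, and 7.15% of all promoters hold it. CCGGAA was found in Rictor and Rheb and in 14.9% of all promoters, and in Rheb one match overlaps a GC box. GGGCGG was found in Rictor and Rheb and in 35.7% of all promoters, and CCAAT in Rictor and in 37.4%. The promoter table gave 10 windows for 9 of the 10 genes, and Deptor had no match. These matches are letters in a window and not measured binding.

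WT replicate 1 and euglycemic replicate 4 stood apart from their groups, with estimated quality weights of 0.284 and 0.229 against 0.705 to 2.87 in the other 9 libraries. Without both, Rptor on log2(FPKM + 1) differed by −0.68 between all mutant and WT libraries (exact permutation p = 0.0278), beside −0.57 with all libraries, and 0 of the 9 members tested were called in any comparison (0 with all libraries). Of all genes tested, 1.15% were then called for diabetic minus WT, 10.6% for euglycemic minus WT, 8.42% for diabetic minus euglycemic and 3.26% for all mutant minus WT.

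Rptor was the only one of the 10 genes whose values in the mutants lay wholly below those of WT. Rptor (ENSMUSG00000025583) lies at chr11:119602905-119899576 on the forward strand of GRCm38, and its longest coding transcript has 34 exons and 6594 bases. Its FPKM was 0.948, 1.36 and 1.79 in WT replicates 1, 2 and 3. It was 0.937, 0.831, 0.507 and 0.485 in diabetic replicates 1 to 4. It was 0.423, 0.481, 0.623 and 0.438 in euglycemic replicates 1 to 4. Diabetic replicates 1 and 2 lay close to WT replicate 1, whereas the other 6 mutant libraries stayed at or below 0.623. The mean was 49.6% lower than in WT in the diabetic group and 64.1% lower in the euglycemic group.

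Only 2 libraries, both WT, reached an FPKM of 1, so Rptor did not enter the fit across genes and was tested with an exact two-sided permutation test on log2(FPKM + 1). The difference was −0.48 for diabetic against WT (exact p = 0.0571) and −0.65 for euglycemic against WT (exact p = 0.0286, which no arrangement of 4 and 3 libraries can undercut). With all 8 mutant libraries it was −0.57 (exact p = 0.00606, the smallest that 8 against 3 allow). Between the mutant groups it was 0.17 and the values overlapped (exact p = 0.171). The added pseudocount of 1 shrinks differences at this level, and with 0.1 in its place the same differences were −0.90, −1.28, −1.09 and 0.38. The pattern of every mutant library below every WT library was shared by 200 of the genes tested, or 1.78%, with 6.88% for diabetic below WT and 5.02% for euglycemic below WT. The values correspond to about 86 to 160 fragments per WT library, 40 to 67 per diabetic and 27 to 62 per euglycemic library, from a depth inferred below.

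In a limma fit that kept genes of any level, the Rptor difference was −0.48 ± 0.18 (SE) for diabetic minus WT, with an adjusted p of 0.56 over all genes, and −0.65 ± 0.18 for euglycemic minus WT, with an adjusted p of 0.39. The unadjusted limma p was 0.022 and 0.0041 in the same order. With a filter of 0.5 FPKM the adjusted limma p was 0.30 and 0.17. In bulk libraries, a lower level in each cell and a larger share of recombined cells cannot be told apart.

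Against Rictor, the scaffold of complex 2, Rptor was lower in all euglycemic and in some diabetic libraries. Rictor lies at chr15:6708379-6800401 on the forward strand. Its FPKM was 5.87, 5.38 and 5.42 in WT, 4.99, 4.59, 6.97 and 5.94 in diabetic and 5.59, 4.91, 6.47 and 4.79 in euglycemic libraries. The 3 groups overlapped, and the highest of the 11 libraries was 1.52 times the lowest. Rptor as a percent of Rictor was 16.2, 25.4 and 33.1 in WT, 18.8, 18.1, 7.27 and 8.16 in diabetic and 7.57, 9.81, 9.62 and 9.14 in euglycemic libraries. The euglycemic libraries all lay below WT, whereas diabetic replicates 1 and 2 lay above WT replicate 1.

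The WT ratio averaged 24.9% ± 8.47 (SD, n = 3). The diabetic average was 13.1% ± 6.21 (SD, n = 4) and the euglycemic average 9.04% ± 1.01 (SD, n = 4). On the log2 scale, with 0.1 added to both genes, it differed from WT by −1.24 in the euglycemic group (exact two-sided permutation test, p = 0.0286, the smallest possible). In the diabetic group the difference was −0.90 (exact p = 0.171), and in all mutant libraries together −1.07 (exact p = 0.0182). Without WT replicate 2 or WT replicate 3 the all-mutant difference no longer passed (exact p = 0.0667 each). Between diabetic and euglycemic libraries the difference was 0.35 (exact p = 0.40), and it ran from 0.15 to 0.56 with 1 library left out. With 1 added in place of 0.1, the euglycemic, diabetic and all-mutant differences from WT were −0.62, −0.48 and −0.55. Diabetic against euglycemic was then 0.14. The tests against WT share their WT libraries, and with 1 WT or euglycemic library fewer the design for the euglycemic group no longer allows p of 0.05. With the difference taken between libraries of the same replicate number, the euglycemic ratio differed by −1.26 (exact sign-flip p = 0.25, the smallest that 3 pairs allow) and the all-mutant ratio by −0.998 (exact sign-flip p = 0.25).

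**Figure D1:**
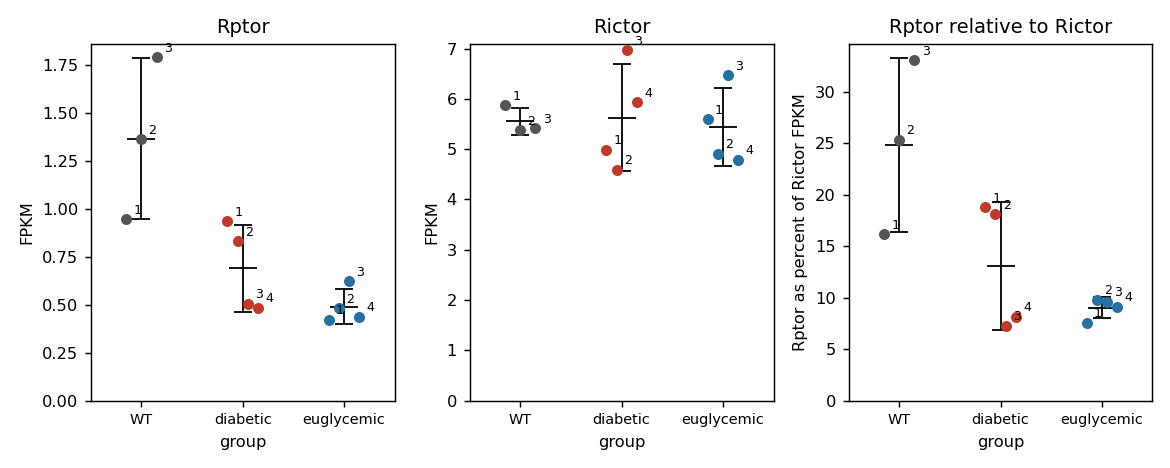
FPKM of Rptor (left), FPKM of Rictor (middle) and Rptor as a percent of Rictor (right) in WT (n = 3), diabetic (n = 4) and euglycemic (n = 4) libraries; each point is a library with its replicate number, and bars are mean and SD. All 8 mutant Rptor points are below the 3 WT points, the Rictor groups overlap, and in the ratio diabetic replicates 1 and 2 sit beside WT replicate 1.

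Against the other members, the Rptor ratio was lower in every euglycemic than in every WT library for Akt1s1, Deptor, Rictor, Tsc1, Tsc2 and Rheb. It overlapped WT for Mtor, Mlst8 and Mapkap1. The diabetic ratio was lower in every library than in WT for Mtor, Akt1s1, Deptor and Tsc2 and overlapped WT for Mlst8, Rictor, Mapkap1, Tsc1 and Rheb. As a percent of Mtor, Rptor averaged 56.7 in WT, 27.5 in diabetic and 30.8 in the euglycemic libraries. As a percent of Akt1s1, the other complex 1 subunit particular to it, Rptor averaged 41.6, 19.6 and 9.89 in the same order. All these ratios contain the Rptor values and add no independent measurement of them.

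Markers of other cell types moved with the mutant groups, and their part in the Rptor values was not tested. The 9 β-cell markers were above 0 in every library, with a summed FPKM of 156900 to 190820 in WT, 138010 to 206370 in diabetic and 116980 to 201990 in euglycemic libraries. Ins1, Ins2 and Iapp carried most of these sums. Slc2a2 was 69.7 to 87.0 in WT, 13.1 to 21.4 in diabetic and 14.0 to 29.6 in euglycemic libraries. Pdx1 was 76.6 to 99.6, 39.0 to 63.0 and 41.1 to 81.9 in the same order. Of the 9 differences from WT, 6 were negative and 3 positive in diabetic, and 8 negative and 1 positive in euglycemic libraries. In each of these comparisons 1 of the 9 was called lower. The 10 acinar markers summed to 3.54 to 33.8 in WT, 15.7 to 2062 in diabetic and 14.3 to 3692 in euglycemic libraries. In the 3 mutant libraries where they stayed between 14.3 and 15.7, Rptor was 0.481 to 0.623, and in the 5 where they reached 776 or more it was 0.423 to 0.937. The 6 α-cell markers summed to 1047 to 2438 in WT, 3935 to 14718 in diabetic and 4759 to 23767 in euglycemic libraries, and the 4 δ- and PP-cell markers to 2088 to 3579, 9018 to 25057 and 10350 to 26071.

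Diabetic replicate 1, the mutant library with the highest Rptor, also had the highest sums of endothelial (48.9), immune (93.5) and stromal (18.7) markers of the 11 libraries. In diabetic replicates 2, 3 and 4, with Rptor at 0.831, 0.507 and 0.485, endothelial sums were 7.75, 7.67 and 15.1, immune sums 40.9, 3.51 and 0.793 and stromal sums 6.01, 0.9705 and 1.45. Endothelial sums were 0.0487 to 1.53 in WT and 0.0436 to 2.43 in euglycemic libraries, with 8 genes in the list, and stromal sums were 0 to 0.641 and 0 to 0.398, with 6 genes. All 4 diabetic libraries thus exceeded every WT and euglycemic library in both sums. Plvap alone carried most of the diabetic endothelial sums, at 39.9, 6.14, 6.35 and 14.0 in replicates 1 to 4. It was the 1 endothelial marker that entered the fit. Within the diabetic group the immune sums had the same order as Rptor, the stromal sums differed from it in replicates 3 and 4, and the endothelial sums in replicates 2, 3 and 4. Immune sums were 9.34 to 23.3 in WT, 0.793 to 93.5 in diabetic and 1.24 to 34.6 in euglycemic libraries, with 7 genes, and ductal sums 58.1 to 71.6, 57.3 to 86.3 and 95.8 to 131, with 5 genes. In the same order of groups, Krt7 carried most of the ductal sum, at 51.4 to 67.8, 40.3 to 55.5 and 62.8 to 89.3. Krt19 was 0.505 to 0.853, 2.54 to 6.85 and 5.37 to 16.5. Spp1 was 2.93 to 6.00, 13.2 to 21.8 and 11.7 to 34.8. Of the ductal list, 1 gene was called higher for diabetic minus WT and 2 for euglycemic minus WT. Members of the immune list went different ways: Cd79a, a B-cell gene, was 8.20 to 20.1 in WT and 0 to 1.10 in the 8 mutant libraries, while Cd74 was 1.13 to 1.84 in WT and 0.241 to 30.0 in mutants and Lyz2, a myeloid gene, 0 to 0.287 and 0 to 59.4. Without diabetic replicate 1 the all-mutant difference in Rptor was −0.61 and the diabetic difference −0.55 (exact p = 0.00833 and 0.10, each the smallest possible).

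None of the other 9 genes passed the test in any comparison. A gene was called at an adjusted p of at most 0.05 (limma, Benjamini-Hochberg over all genes tested) and a change of at least 1.5-fold on log2(FPKM + 1). The count was 0 of 9 for diabetic minus WT, where 0.969% of all genes were called, and 0 of 9 for euglycemic minus WT, where 0.551% were. It was 0 of 9 for diabetic minus euglycemic (0.00889%) and 0 of 9 for all mutant minus WT (1.05%). At an unadjusted p of at most 0.05 the counts were also 0, against 11.9%, 13.9%, 20.6% and 11.3% of all genes in the same order. The medians of the 9 differences were 0.03, −0.03, −0.06 and −0.02, beside 0.01, −0.01, 0.01 and −0.0035 over all genes.

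**Figure D2:**
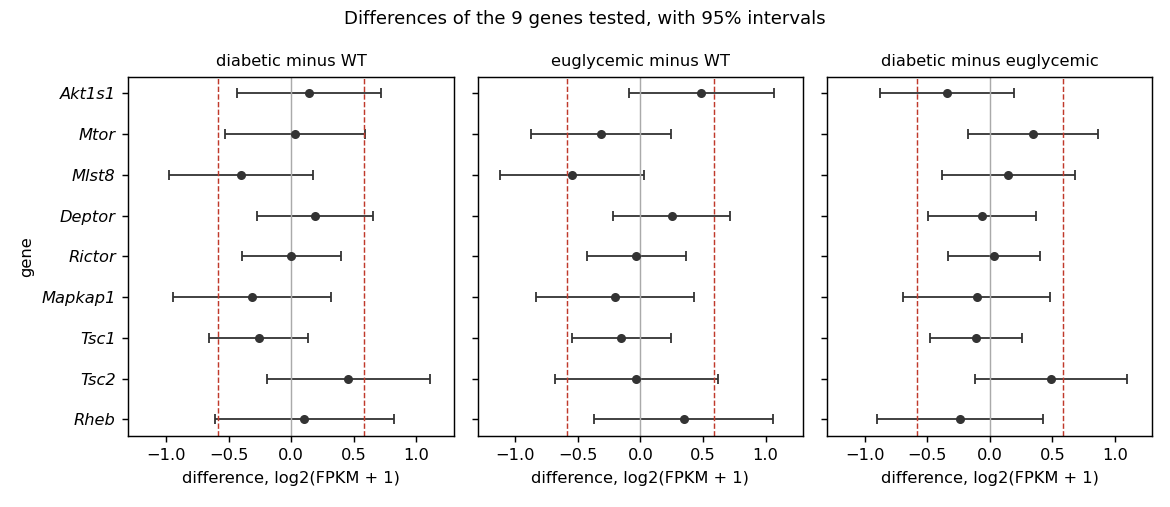
Differences in log2(FPKM + 1) of the 9 genes tested in 3 comparisons, with points for the limma estimates, bars for their 95% intervals and dashed lines at a 1.5-fold change. Every bar crosses 0, and the Rictor bar stays inside the dashed lines in all 3 panels.

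Rictor was among the steadiest members. Its difference was 0.00 for diabetic minus WT (95% interval −0.40 to 0.40) and −0.03 for euglycemic minus WT (−0.43 to 0.36), so that a 1.5-fold change lay outside the interval. The same was true of diabetic minus euglycemic (−0.33 to 0.40). The sign of each of these Rictor differences turned under some alternatives.

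Of the subunits both complexes share, Mtor, the kinase itself, lies at chr4:148448611-148557683 on the forward strand. Its FPKM was 1.74, 3.05 and 2.52 in WT, 3.54, 2.91, 2.25 and 1.5 in diabetic and 1.39, 1.44, 1.39 and 2.99 in euglycemic libraries. Euglycemic replicates 1 to 3 lay below all WT libraries and replicate 4 beside the highest of them. The difference was −0.31 for euglycemic minus WT (95% interval −0.87 to 0.25; limma adjusted p = 0.61) and 0.03 for diabetic minus WT (−0.53 to 0.59). When limma weighted the libraries by estimated quality, which gave euglycemic replicate 4 the lowest weight (0.229), the Mtor difference of euglycemic minus WT was −0.61 and was called (adjusted p = 0.024). The weighted fit called 20.3% of all genes tested in that comparison, against 0.551% without weights.

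Mlst8, the small subunit that binds the kinase domain in both complexes, lies at chr17:24473551-24479078 on the reverse strand. Its FPKM was 5.26, 5.75 and 4.06 in WT, 3.93, 2.49, 4.68 and 3.33 in diabetic and 5.19, 2.88, 3.27 and 1.73 in euglycemic libraries. In 6 of the 8 mutant libraries it lay below every WT library, and diabetic replicate 3 and euglycemic replicate 1 overlapped WT. The difference was −0.40 for diabetic minus WT (95% interval −0.97 to 0.18) and −0.55 for euglycemic minus WT (−1.12 to 0.03; limma adjusted p = 0.38), the lowest unadjusted p of the 9 genes at 0.060. Of its exon bases 22.5% overlap Bricd5 on the opposite strand, and without strand in the reads the 2 genes cannot be told apart there.

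Deptor, an inhibitor bound to mTOR in both complexes, lies at chr15:55112317-55259271 on the forward strand. Its FPKM was 8.61, 9.20 and 12.1 in WT, 12.0, 13.2, 12.7 and 8.31 in diabetic and 9.79, 11.5, 15.7 and 11.4 in euglycemic libraries. The groups overlapped, and the differences from WT were 0.19 (95% interval −0.28 to 0.66) in diabetic and 0.25 (−0.22 to 0.72) in euglycemic libraries. Deptor ranked second of the 10 genes in every group.

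Akt1s1, which encodes the complex 1 inhibitor PRAS40, lies at chr7:44848991-44855421 on the forward strand. Its FPKM was 3.46, 2.53 and 4.11 in WT, 3.70, 3.97, 6.39 and 2.01 in diabetic and 4.90, 6.18, 4.42 and 4.84 in euglycemic libraries. All 4 euglycemic libraries lay above all WT libraries, a pattern that 5.91% of the genes tested had, whereas the diabetic libraries spanned the WT range. The difference was 0.49 for euglycemic minus WT (95% interval −0.09 to 1.06; limma adjusted p = 0.43) and 0.14 for diabetic minus WT (−0.43 to 0.72). Akt1s1 was thus the one subunit other than Rptor with non-overlapping groups, in the opposite direction, and its difference did not pass the test.

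Mapkap1, which encodes mSin1 of complex 2, lies at chr2:34406771-34624950 on the forward strand. Its FPKM was 2.11, 2.85 and 3.25 in WT, 2.82, 1.18, 2.29 and 1.91 in diabetic and 3.28, 3.39, 1.93 and 0.941 in euglycemic libraries. Euglycemic replicate 4 was the only library of any tested member below an FPKM of 1, and it holds about 28 fragments of Mapkap1. The differences from WT were −0.31 (95% interval −0.94 to 0.32) in diabetic and −0.20 (−0.84 to 0.43) in euglycemic libraries.

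**Figure D3:**
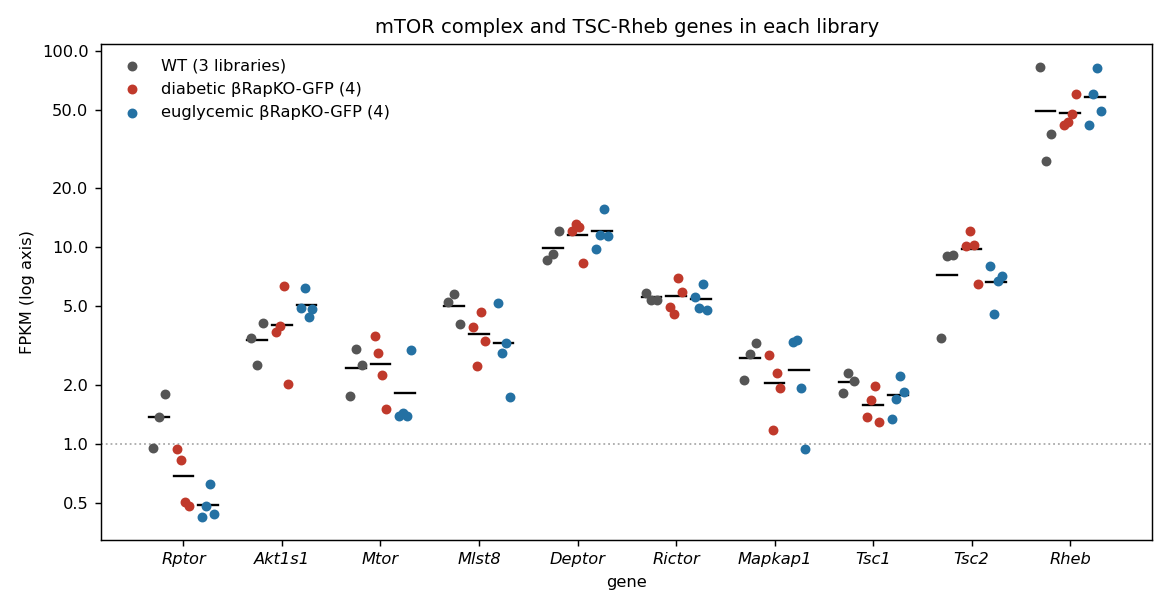
FPKM of the 10 genes on a log axis in WT (grey), diabetic (red) and euglycemic (blue) libraries; each point is a library, short bars are group means, and the dotted line marks an FPKM of 1. Rptor is the lowest gene and the one with all mutant points under the WT points, while Rheb lies highest, at 27.5 to 83.0.

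Upstream, neither the TSC genes nor Rheb passed the test. Tsc1, the partner that stabilises Tsc2, lies at chr2:28641228-28691167 on the forward strand. Its FPKM was 1.82, 2.29 and 2.1 in WT, 1.38, 1.66, 1.96 and 1.29 in diabetic and 1.34, 1.70, 2.22 and 1.83 in euglycemic libraries. In 5 of 8 mutant libraries it lay below every WT library. The difference was −0.26 for diabetic minus WT (95% interval −0.66 to 0.14) and −0.15 for euglycemic minus WT (−0.55 to 0.24), and the latter interval leaves out a 1.5-fold change.

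Tsc2, the GTPase-activating protein for Rheb, lies at chr17:24595816-24632630 on the reverse strand. Its FPKM was 3.46, 9.08 and 9.08 in WT, 10.1, 12.0, 10.3 and 6.49 in diabetic and 8.05, 4.6, 6.71 and 7.13 in euglycemic libraries. WT replicate 1 was the lowest of all 11 and the other WT libraries agreed closely, so that the WT mean of 7.21 lay in a gap between its libraries. The difference was 0.46 for diabetic minus WT (95% interval −0.20 to 1.11) and 0.49 for diabetic minus euglycemic (−0.12 to 1.09; limma adjusted p = 0.33). With 1 library left out, diabetic minus WT ran from 0.063 to 0.65. Without WT replicate 1, the difference of all mutants minus WT went from 0.21 to −0.18. Of its exon bases 7.20% overlap Pkd1 on the opposite strand.

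Rheb, the activator of complex 1, lies at chr5:24802823-24842624 on the reverse strand. Its FPKM was 83.0, 27.5 and 37.8 in WT, 41.6, 43.5, 47.4 and 60.4 in diabetic and 41.8, 60.4, 82.1 and 49.4 in euglycemic libraries. WT replicate 1 was the highest of all 11 libraries and the other WT libraries the lowest. All 8 mutant libraries thus fell inside the WT range. The difference was 0.11 for diabetic minus WT (95% interval −0.61 to 0.82) and 0.35 for euglycemic minus WT (−0.37 to 1.06; limma adjusted p = 0.66). With 1 library left out, euglycemic minus WT ran from 0.012 to 0.79. With library weights, which set WT replicate 1 at 0.284, Rheb was called for euglycemic minus WT (0.80, adjusted p = 0.026) and for all mutant minus WT (0.65, adjusted p = 0.0499). The weighted fit called 20.3% and 9.92% of all genes tested in these comparisons.

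Rheb, Tsc2 and Mtor varied with a property of the whole library. For each library, the median deviation of the 2805 genes with the longest transcripts (4300 bases or more) minus that of the 2804 with the shortest (1740 or fewer) was taken as a balance of long and short transcripts on the log2 scale. It was −0.53, 0.32 and 0.38 in WT, 0.60, 0.34, 0.21 and 0.0098 in diabetic and −0.36, −0.47, −0.35 and −0.21 in euglycemic libraries. WT replicate 1 and the 4 euglycemic libraries were thus below 0 and the other 6 libraries above 0. In the 5 libraries below 0, Tsc2 had a median FPKM of 6.71 (3.46 to 8.05), against 9.61 (6.49 to 12.0) in the 6 above 0. Mtor had a median of 1.44 (1.39 to 2.99) against 2.72 (1.5 to 3.54). Rheb, whose longest coding transcript is the shortest of the 10 at 1784 bases, went the other way, with 60.4 (41.8 to 83.0) against 42.6 (27.5 to 60.4). Rictor, with the longest at 9312 bases, had 5.59 (4.79 to 6.47) against 5.40 (4.59 to 6.97). Transcript length did not sort all members. Deptor (8547 bases) and Tsc1 (7702 bases) had a Pearson r of 0.18 and 0.02 with the balance, and Akt1s1 (1812 bases) had −0.28. For Rheb, Tsc2 and Mtor the r was −0.71, 0.83 and 0.78. The part of this balance in the differences of the members was not tested, and it separated all diabetic from all euglycemic libraries. Rptor had a median of 0.481 (0.423 to 0.948) in the libraries below 0 against 0.884 (0.485 to 1.79) in those above 0, and a Pearson r of 0.55 with the balance over the 11 libraries, which share their groups. Below 0, the 4 euglycemic libraries had 0.423 to 0.623 and the 1 WT library 0.948. Above 0, the 4 diabetic libraries had 0.485 to 0.937 and the 2 WT libraries 1.36 and 1.79.

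**Figure D4:**
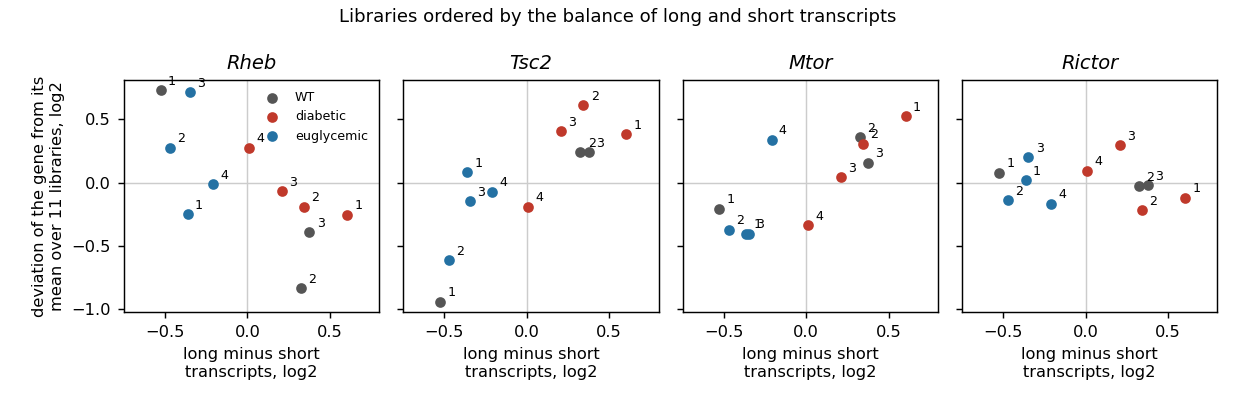
Deviation of Rheb, Tsc2, Mtor and Rictor from their own mean over 11 libraries, log2(FPKM + 1), against the balance of long and short transcripts of each library (log2); points are libraries with their replicate number, coloured by group. Rheb runs down and Tsc2 and Mtor run up from left to right, with WT replicate 1 among the euglycemic libraries, while Rictor stays within 0.29 of its mean.

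The order of levels was steady at both ends. In WT it ran from Rheb (mean FPKM 49.4) through Deptor (9.96), Tsc2 (7.21), Rictor (5.56), Mlst8 (5.03), Akt1s1 (3.37), Mapkap1 (2.74), Mtor (2.44) and Tsc1 (2.07) to Rptor (1.37). Rheb lay above Deptor in 11 of 11 libraries with no overlap of their ranges in any group, and Rptor lay below Tsc1 with no overlap. Deptor lay above Tsc2 in 3 of 3 WT, 4 of 4 diabetic and 4 of 4 euglycemic libraries, with ranges that overlapped in the WT and diabetic groups and not in the euglycemic group. From Tsc2 to Tsc1 the ranges of neighbours overlapped in every group, so those ranks do not separate beyond the spread. In the mutants Akt1s1 passed Mlst8, to rank 5 in both groups, again with overlapping ranges. In WT the level of Rheb was above 93.1% of the genes tested and that of Rptor above 14.9%. In the mutants Rptor was above 1.48% of them in the diabetic and 0.889% in the euglycemic group, a position set in part by the filter, which it did not pass.

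Within-group spread set how much each gene could show. The within-group SD of log2(FPKM + 1) was 0.17 for Tsc1 and 0.18 for both Rictor and Rptor, where genes within 0.5 log2 units of each member in mean level had medians of 0.32 to 0.34. It was 0.42 for Mapkap1, 0.44 for Tsc2 and 0.50 for Rheb.

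By a likeness over all 11 libraries, the genes tested that tracked Rptor most closely were Dcaf7, Glp1r, Itpkb, Chd2 and Tef. Their Pearson r with Rptor on log2(FPKM + 1) ran from 0.89 to 0.92 and the Spearman rho from 0.75 to 0.87, given as a description of 11 libraries that share groups and depth. Glp1r, the receptor for the incretin GLP-1, had a mean FPKM of 109 in WT (61.4 to 147), 71.8 in diabetic (54.6 to 83.1) and 46.6 in the euglycemic libraries (37.7 to 53.0). Dcaf7, a WD-repeat adaptor protein, had means of 27.1, 19.5 and 13.2 in the same order. Tef, a PAR bZIP transcription factor, had 7.13, 3.40 and 2.39. Of the members, Mtor came nearest with r = 0.49, rank 1380 of 11251, and Rheb was farthest with r = −0.45.

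The wider pathway was read from 5 further gene lists. No gene of these lists was called in any of the 4 comparisons. They hold 10 other complex and assembly genes (7 tested), 19 substrates and effectors of complex 1 (19 tested), 10 substrates of complex 2 (10 tested), 37 amino acid and energy inputs (33 tested) and 16 growth factor inputs (12 tested). At an unadjusted p of at most 0.05, 4 of these 81 genes differed for diabetic minus WT, 10 for euglycemic minus WT and 17 for diabetic minus euglycemic. These counts stand beside 11.9%, 13.9% and 20.6% of all genes.

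**Figure D5:**
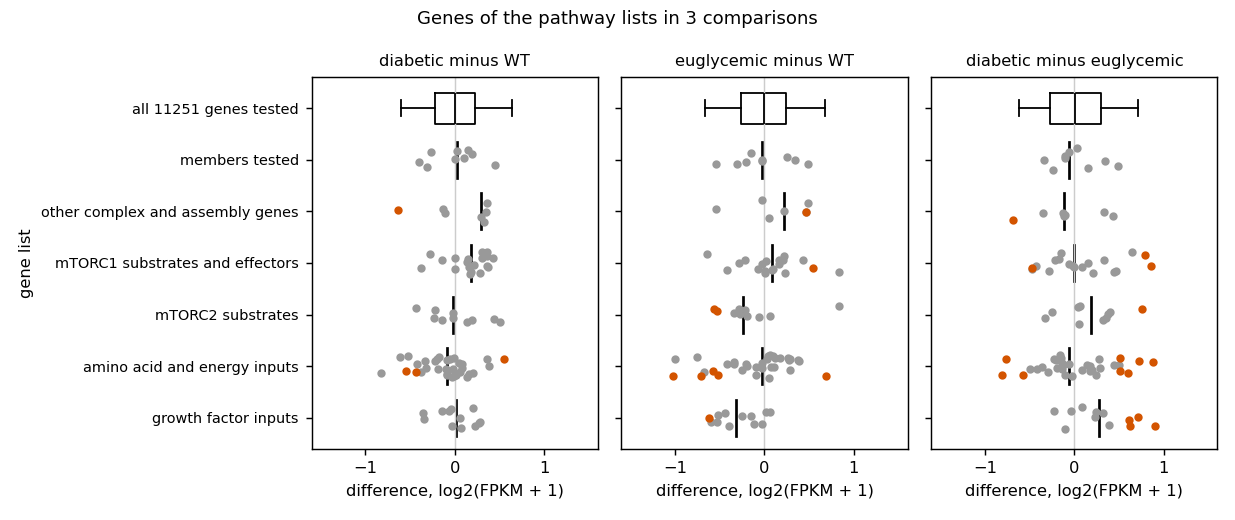
Differences in log2(FPKM + 1) of every tested gene of the member list and 5 pathway lists in 3 comparisons, with orange points for an unadjusted p of at most 0.05, grey for the rest and black bars for list medians. The box at the top holds the middle 50% of all 11251 genes with whiskers from 5 to 95%, and the list medians lie from −0.32 to 0.30.

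Among the effectors of complex 1, the differences from WT had a median of 0.18 in diabetic and 0.08 in euglycemic libraries, and the lowest adjusted p of the list was 0.51 and 0.28. Rps6kb1, the S6 kinase gene, had an FPKM of 5.07, 4.36 and 4.86 in WT, 4.50, 4.84, 3.77 and 3.84 in diabetic and 6.10, 6.83, 5.99 and 1.90 in euglycemic libraries. Its differences from WT were −0.14 in diabetic and 0.01 in euglycemic libraries. Rps6kb2 differed by −0.28 and 0.00, Eif4ebp2 by 0.17 and 0.02, Grb10 by 0.15 and 0.20 and Tfeb by 0.29 and 0.08, none with an unadjusted p of at most 0.05.

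Eif4ebp1, a repressor of cap-dependent translation that complex 1 phosphorylates, varied widely between libraries. Its FPKM was 151, 27.4 and 33.8 in WT, 27.6, 145, 68.1 and 74.6 in diabetic and 34.6, 40.2, 188 and 289 in euglycemic libraries. One WT, 1 diabetic and 2 euglycemic libraries were at 145 or more, and the other 7 were at 74.6 or less. The 95% interval of its euglycemic minus WT difference ran from −0.87 to 2.53. Rps6, the ribosomal protein downstream of S6 kinase, had values of 0.59 to 2.23 FPKM, and 43.8% of its 50-base stretches occur in other genes, mainly processed copies, so its level is uncertain.

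Ulk1, the autophagy kinase that complex 1 inhibits, had an FPKM of 2.24, 4.55 and 7.20 in WT, 6.47, 4.98, 6.82 and 5.07 in diabetic and 2.27, 3.40, 2.64 and 3.61 in euglycemic libraries. All 4 diabetic libraries lay above all 4 euglycemic ones, a pattern that 6.85% of the genes tested had, and the difference was 0.78 (95% interval 0.23 to 1.34) with a limma adjusted p of 0.15. Lpin1, a phosphatidate phosphatase that complex 1 phosphorylates, had a difference of 0.86 in the same comparison (limma adjusted p = 0.15).

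Among the substrates of complex 2, Akt1 had an FPKM of 26.6, 33.2 and 36.7 in WT, 27.8, 27.5, 32.0 and 22 in diabetic and 29.9, 24.6, 24.8 and 25.1 in euglycemic libraries. Its differences from WT were −0.23 and −0.28, and those of Akt2 −0.22 and −0.27. Sgk1 ranged from 0.010 to 4.09 FPKM over the 11 libraries and differed from WT by 0.44 and 0.06. Prkca, a conventional protein kinase C, was 0.76 higher in diabetic than in euglycemic libraries on the log2 scale (limma adjusted p = 0.13).

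Among the nutrient and energy inputs, Prkaa1, a catalytic subunit of the AMP-activated kinase, had an FPKM of 28.1, 35.4 and 29.2 in WT, 22.7, 19.9, 25.3 and 22.4 in diabetic and 24.3, 17.2, 19.8 and 14.0 in euglycemic libraries. All 8 mutant libraries were below all WT libraries, a pattern of 1.78% of genes, and the difference of all mutants minus WT was −0.57 (limma adjusted p = 0.20). Sesn3, a sestrin of the leucine-sensing branch, had 4.21, 6.74 and 7.78 in WT, 2.88, 3.07, 5.45 and 4.80 in diabetic and 2.47, 4.05, 1.91 and 1.90 in euglycemic libraries, with a difference of −1.02 for euglycemic minus WT (limma adjusted p = 0.14).

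Lamtor2, a subunit of the Ragulator complex that docks complex 1 on the lysosome, had 23.2, 14.6 and 13.7 in WT, 17.1, 18.6, 15.7 and 12.3 in diabetic and 24.1, 31.4, 27.9 and 27.1 in euglycemic libraries. All 4 euglycemic values exceeded every other library, a pattern of 1.37% of the genes tested, with a difference of −0.77 for diabetic minus euglycemic (limma adjusted p = 0.12). Lamtor4 and Lamtor5 of the same complex had −0.58 and −0.81 in that comparison (adjusted p = 0.16 and 0.15). Other genes of the nutrient and energy list went the other way. At an unadjusted limma p of at most 0.05, 3 genes of the list were lower and 5 higher in diabetic than in euglycemic libraries. For Lamtor2, WT replicate 1 lay nearer to the euglycemic libraries than the other WT libraries did, as in the balance of long and short transcripts.

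Depth was inferred from the values, since the table has no totals. Over 4499 genes with 1 exon and 500 bases or more, low values fell on multiples of a fixed step (within 0.02 of a whole number) in 92.7 to 97.3% of cases. The step gives 9497588 to 16643802 fragments per library. At this depth the tested members had between 28 and 2202 fragments per library, counted on the longest coding transcript.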

How the data were processed

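Libraries were made from poly-A RNA of GFP-sorted β-cells and sequenced from both ends. The authors deposited 1 FPKM value per gene and library. The study's methods name Tophat and Cufflinks on mm10, whereas the submitters' processing notes name HISAT2 2.0.4, StringTie 1.3.0 and edgeR with mm10, so the tool behind the deposited FPKM is uncertain. Of 34745 entries, 34267 matched a symbol in GENCODE vM21 (GRCm38), and 17 second entries of a symbol were left out.

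Differences were fitted with limma 3.58.1 in R 4.3.3 (lmFit, eBayes with a trend) on log2(FPKM + 1), all 11 libraries in 1 fit, over genes that reached 1 FPKM in 3 or more libraries. Fold changes are on this scale and understate those of low genes. Rptor and its ratio to Rictor were tested by enumerating every assignment of libraries to groups (two-sided). On simulated data for diabetic minus WT, 186 of 200 genes changed 4-fold among 11251 were called, with 10 unchanged genes. The changed genes were drawn from those with a mean log2(FPKM + 1) above 3. Rptor, Mtor, Mlst8, Akt1s1, Rictor, Mapkap1 and Tsc1 lie below this level. Smaller changes and lower genes were not simulated, so their recovery is not known. Other steps used scipy 1.17.1 with numpy 2.4.6 and pandas 2.3.3 in Python 3.11.15.

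The members and lists were chosen with earlier results of these data known. Named genes are the 10 members, the 5 genes with the highest Pearson r with Rptor, and 11 pathway genes fixed by name. List genes that passed in any comparison were to be named too. No gene of the 5 pathway lists passed, and the markers that passed are not all named. Some markers were named after their values were seen. Further list genes at an unadjusted p of at most 0.05 (Prkaa1, Sesn3, Lamtor2, Lamtor4, Lamtor5, Prkca, Lpin1) were named after their values were seen, as was the balance of transcript length. One list gene is not reported here by name. Markers and exon overlap were read from the same table and annotation.

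Replicate numbers were checked by the correlation of deviations from group means over genes. It averaged −0.132 in 10 pairs of libraries with the same number and 0.0433 in 30 other pairs. This gave no sign that the numbers pair the libraries, but so few pairs cannot exclude it. Alternatives were other filters, pseudocounts and scalings, other fits, library weights, the replicate block and leaving out each library, and, chosen after seeing the data, leaving out WT replicate 1 with euglycemic replicate 4. Fragment totals were inferred and are not the authors' own. No promoter measurement and no protein sequence was used here.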

Additional observations from a re-analysis of the deposited data

Results flagged for a closer look

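Mtor in euglycemic replicate 4 had an FPKM of 2.99, far from the other 3 euglycemic libraries at 1.39 to 1.44, with a gap of 0.967 of the group's range (above Dixon's critical value for 4 samples). It was the one value so marked in 22 groups of 4 checked, and chance marks about 1 in 20. The same library had the lowest quality weight, the highest sum of acinar markers and the lowest Mlst8 and Mapkap1. The part of these in the Mtor value was not tested.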

How the results depend on the processing

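Of 36 differences of the 9 tested members over 21 alternatives, 696 of 747 values kept their sign and stayed uncalled, 48 turned sign in 14 differences, and 3 were newly called. Library weights called 2 members for euglycemic minus WT (Mtor and Rheb) and 1 for all mutant minus WT (Rheb), against 0, where 20.3% and 9.92% of all genes were called. The Rptor level of euglycemic against WT ran from −0.79 to −0.53 with 1 library left out, was −0.77 with 2 libraries left out and −0.65 (adjusted p = 0.39) in the unfiltered limma fit; with 6 libraries or fewer its exact p cannot pass 0.05. In that fit all mutant against WT was −0.57 (adjusted p = 0.37). The euglycemic ratio to Rictor ran from −1.51 to −1.02 with 1 library left out and was −1.52 with 2; all mutant against WT ran from −1.33 to −0.85, and lost the threshold without WT replicate 2 or WT replicate 3. With the replicate block these ratios were −1.26 and −0.998 (exact p = 0.25 each). Leaving out 1 library at a time, diabetic minus WT ran from −0.12 to 0.19 in Mtor, −0.065 to 0.37 in Akt1s1, −0.092 to 0.079 in Rictor and −0.23 to 0.55 in Rheb. Euglycemic minus WT ran from −0.11 to 0.016 in Rictor, −0.36 to 0.038 in Mapkap1 and −0.43 to 0.16 in Tsc2. Diabetic minus euglycemic ran from −0.045 to 0.35 in Mlst8, −0.15 to 0.077 in Deptor, −0.060 to 0.11 in Rictor and −0.35 to 0.047 in Mapkap1. All mutant minus WT ran from −0.062 to 0.023 in Rictor, −0.18 to 0.41 in Tsc2 and −0.11 to 0.67 in Rheb. Signs also turned with library weights (Mtor −0.11 for diabetic minus WT, Rictor 0.0034 for euglycemic minus WT and 0.044 for all mutant minus WT, Tsc2 −0.15 for all mutant minus WT), with 2 libraries left out (Mtor −0.12, Rictor 0.050, −0.014 and 0.043, Mlst8 −0.045, Tsc2 −0.20), with TPM and the median of ratios (Deptor 0.053 and 0.00029 for diabetic minus euglycemic), with a pseudocount of 0.1 (Rictor −0.00035 for diabetic minus WT) and with the replicate block (Tsc2 0.030 for euglycemic minus WT). The cause was not tested. The replicate block changed no call of a member, and the numbers of all genes called moved to 45, 20, 0 and 53 from 109, 62, 1 and 118. They were 551, 2287, 1212 and 1116 with library weights and 36, 536, 378 and 144 without WT replicate 1. Low fragment numbers of Rptor limit its ratios.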
